A study of Oryza sativa Japonica Group with 20 samples.

Results

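H3K27me3 and H3K4me3, a pair of histone marks with opposite links to gene activity, were laid side by side in root tips of the rice mutant plt345. CUT&Tag tethers a transposase to chromatin through an antibody, so that DNA next to the bound protein is cut and tagged for sequencing. The peak lists of 2 H3K27me3 and 2 H3K4me3 libraries of plt345 were used, 4 of the 20 samples of the series, and members were chosen by these labels alone. The plt345 plants are labelled as a triple mutant of PLT3, PLT4 and PLT5. The wild-type (WT) plants set beside them at the end are labelled ZH11. Root tips of about 0.8 cm came from seedlings of 7 days in both genotypes, with no treatment. The labels give neither the alleles nor the number of mutant lines, and they do not say whether the 2 replicates of a group came from separate plants.

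PLT proteins are PLETHORA transcription factors of the AP2 family, which keep root stem cells and the dividing zone of the root tip in place. H3K27me3 is written by Polycomb repressive complex 2 (PRC2), of which EMF2b is a subunit, and is found over repressed genes, often across the whole gene body. H3K4me3 sits at the first nucleosomes of transcribed genes. Chromatin with both marks is called bivalent and is common at developmental genes, and the series title names such domains as its subject. A root tip is a mixture of cell types, and peaks of both marks at a place do not show that they lie on the same nucleosome or in the same cell. In such bulk samples fewer cells with a mark and less of the mark per cell cannot be told apart.

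The authors called peaks in each library separately. The H3K27me3 lists of plt345 held 20841 and 20942 peaks that covered 27.6 and 27.7 Mb, and the H3K4me3 lists 27182 and 26841 peaks over 24.1 and 24.3 Mb. A domain here is an unbroken run of bases under the peaks of both libraries of a mark, which gave 18825 H3K27me3 domains over 22.9 Mb and 25672 H3K4me3 domains over 21.6 Mb. These bases were 70.6% of the length under either H3K27me3 library and 80.7% of that under either H3K4me3 library. The lists hold no read counts, so depth is unknown, and they name no genes. No source used here names the assembly, so regions are given by the positions in the lists and no sequence is shown.

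The marks were mostly apart. A total of 3414 H3K27me3 domains shared at least 1 bp with an H3K4me3 domain, which is 18.1% of all H3K27me3 domains (95% Wilson interval 17.6 to 18.7%, for counting error only). A further 1111 (5.90%) adjoined H3K4me3 with a gap under 1 kb, and 14300 (76.0%) were separate from it. Seen from the other mark, 3521 H3K4me3 domains overlapped H3K27me3, 13.7% of all H3K4me3 domains, 1323 (5.15%) adjoined it and 20828 (81.1%) were separate. When single libraries were paired, 1 of each mark, the overlapping share was 21.8 to 22.5% for H3K27me3 and 17.4 to 17.8% for H3K4me3 over the 4 pairs. The pairs differed from each other by less than 1 percentage point, and all 4 lay above the value for bases under both libraries. The counts moved more with the choice of peaks. Without the weakest 25% of each list by q, 1710 H3K27me3 and 1722 H3K4me3 domains overlapped, and for bases under at least 1 library 5914 and 6080. Most overlapping domains met a single partner: 3281 H3K27me3 domains overlapped 1 H3K4me3 domain, 119 overlapped 2 and 14 overlapped 3. In the other direction 40 H3K4me3 domains reached into 2 H3K27me3 domains.

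**Figure D1:**
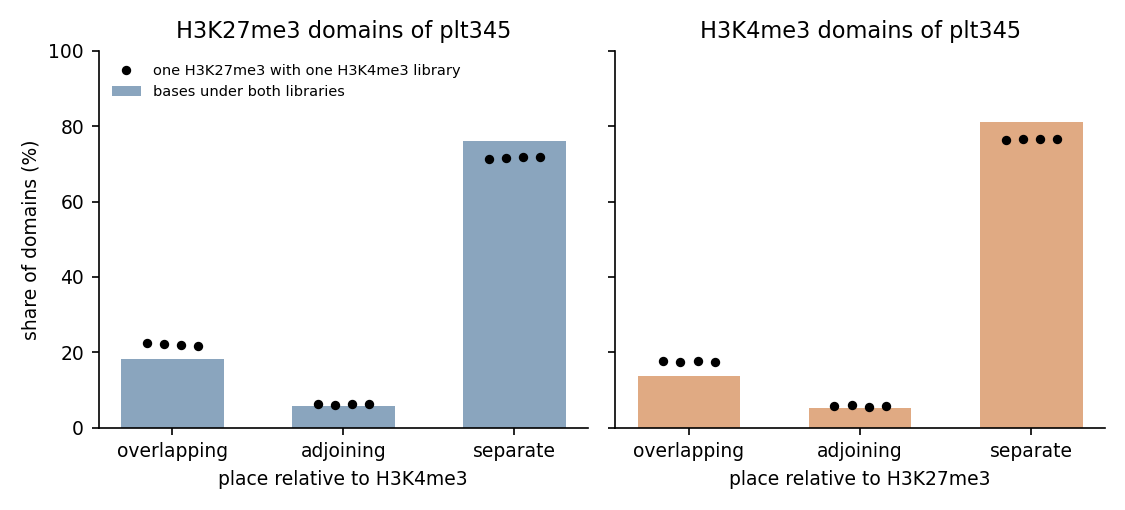
Share of H3K27me3 domains (left) and H3K4me3 domains (right) of plt345 that overlapped, adjoined or lay apart from the other mark, in percent. Bars are domains of bases under both libraries and the 4 points are pairs of single libraries; separate domains make up 76.0% and 81.1% of the bars, and the points of each class lie close together.

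Length shared by the marks added up to 1.58 Mb, which was 6.92% of the H3K27me3 length and 7.33% of the H3K4me3 length. They formed 3561 stretches with a median length of 368 bp and quartiles of 250 and 571 bp. Stretches of 201 to 300 bp (666) and of 301 to 400 bp (632) were the most frequent among those binned by 100 bp. Few were long: 211 reached 1000 bp and 11 exceeded 2000 bp, with a longest of 2961 bp. At the other end 468 stretches were under 150 bp, about the length of DNA on a nucleosome or less. Pairs of single libraries gave 2.33 to 2.42 Mb with medians of 409 to 412 bp. The length under both marks therefore depended on how peaks were taken, with 0.919 Mb when the weakest 25% of peaks by q of each list were left out and 3.29 Mb for bases under at least 1 library of each mark.

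**Figure D2:**
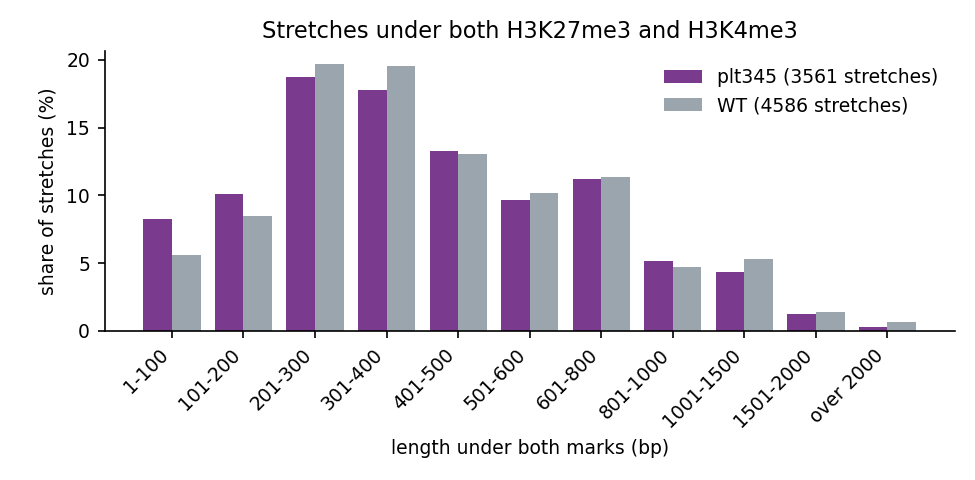
Length of the stretches under both H3K27me3 and H3K4me3 in plt345 (3561 stretches) and WT (4586 stretches), as the share of stretches in each length bin in percent. Bins are 100 bp wide up to 600 bp and wider beyond; in both genotypes the bins from 201 to 400 bp are the highest and few stretches exceed 1000 bp.

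Where the marks met, they were more often staggered than nested. Of the 3561 pairs of overlapping domains, 2106 (59.1%) were staggered, so that each mark ran on past the other at an opposite end. In these pairs the shared stretch had a median of 316 bp, with a median of 432.5 bp of H3K27me3 and 412.5 bp of H3K4me3 beyond it. An H3K4me3 domain lay wholly inside an H3K27me3 domain in 979 pairs (27.5%), at median widths of 450 bp and 1613 bp. This count was 337 without the weakest 25% of peaks by q and 1840 for bases under at least 1 library. The reverse, a short H3K27me3 domain wholly inside an H3K4me3 domain, was found in 476 pairs (13.4%), at median widths of 416 bp and 1120 bp. The 4 pairs of single libraries gave 59.4 to 61.1% staggered, and both nested shares stayed within 2 percentage points of these values. By length, staggered pairs held 51.2% of the shared bases and nested H3K4me3 34.8%.

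The H3K4me3 domains inside H3K27me3 lay somewhat nearer to its ends than an even spread would. The distance from a nested H3K4me3 domain to the nearer end of its H3K27me3 domain had a median of 142 bp, and it was under 150 bp for 503 of 979 (51.4%) and at least 500 bp for 142 (14.5%). A nested domain left a median of 1010 bp of H3K27me3 beside it. Its place in this free room is 0 when it touches an end and 0.5 when it is central, and an even spread would have a median of 0.25. The measured median was 0.203, and 566 of the 979 nested domains (57.8%) lay nearer to an end than 0.25. An even spread would put as many nearer as farther. For the 496 nested domains with at least 1000 bp of free room the median was 0.181, and 308 (62.1%) lay nearer than 0.25. The strongest point of an H3K4me3 peak, its summit, fell inside the H3K27me3 domain for 66.3% and 65.2% of the overlapping peaks of replicates 1 and 2, at a median of 213 and 208 bp from the edge. The lists carry no strand, so which end of a gene faces the H3K4me3 was not analysed here.

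The cover by H3K4me3 was also taken by distance from the edges of all 18825 H3K27me3 domains. Cover inside an edge comes from the 3414 overlapping domains by definition, and cover outside can come from any. H3K4me3 covered 8.89% of bases in the first 100 bp inside an H3K27me3 edge and 8.96% in the next 100 bp. This fell to 3.55% at 900 to 1000 bp inside, in the domains wide enough to reach it, and to 4.33% at 900 to 1000 bp outside. The single libraries gave the same order, with 11.2% for replicate 1 and 10.8% for replicate 2 at 100 to 200 bp inside, against 4.89% and 4.85% at 900 to 1000 bp. Windows deep inside come from wide domains alone, so the profile was also drawn from the 3318 H3K27me3 domains of at least 2000 bp, a set added after the data were examined. There the rise at the edge was smaller, with 5.30% at 100 to 200 bp inside, 3.55% at 900 to 1000 bp inside and 3.16% at 900 to 1000 bp outside. Around H3K4me3 edges, H3K27me3 covered 8.32% of the first 100 bp inside and 3.64% of bases 900 to 1000 bp outside.

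**Figure D3:**
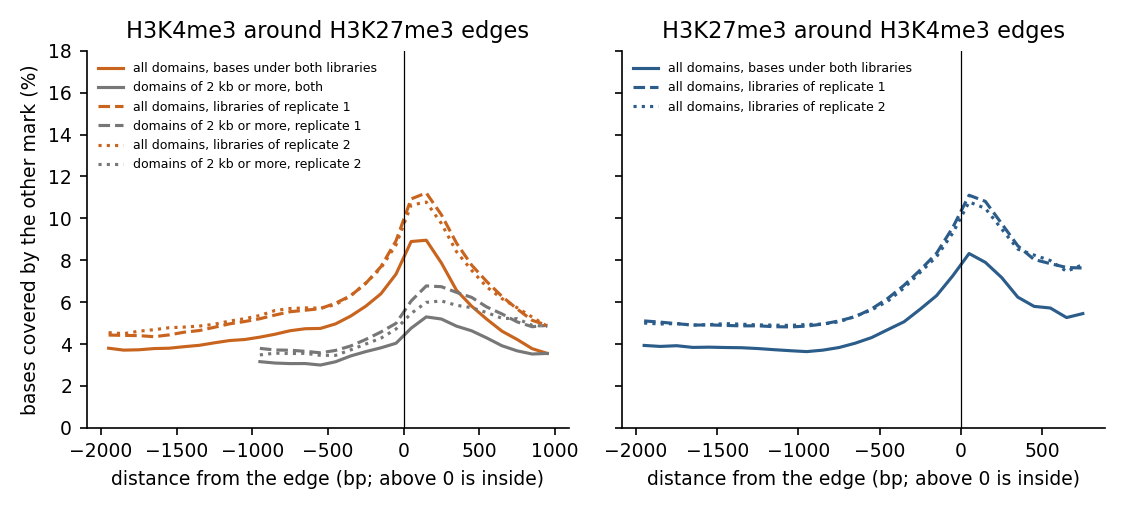
Share of bases covered by the other mark, in percent, in windows of 100 bp by distance from the edges of H3K27me3 domains (left) and H3K4me3 domains (right) of plt345, with the inside to the right of 0. Solid lines are bases under both libraries, dashed and dotted lines the single libraries of replicates 1 and 2, and grey lines H3K27me3 domains of at least 2000 bp alone; on the left the solid lines peak at 100 to 200 bp inside the edge, at 8.96% for all H3K27me3 domains and 5.30% for the wide ones.

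Adjoining domains were few, and most had the other mark on a single side. Of the 1111 adjoining H3K27me3 domains 15 had H3K4me3 within 1 kb on both sides, and of the 1323 adjoining H3K4me3 domains 35 lay between H3K27me3 on both sides. The gap had a median of 467 bp for H3K27me3 and 506 bp for H3K4me3. Among gaps under 1500 bp, taken in steps of 250 bp, those of 250 to 500 bp were the least frequent for both marks. From 0 to 1000 bp the steps held 384, 192, 225 and 310 H3K27me3 domains. The steps from 1000 to 1500 bp, which count as separate, held 358 and 368, close to the first. For H3K4me3 the counts were 416, 242, 321 and 344, and then 383 and 334. Part of the adjoining class depended on the call of single libraries, since for 522 adjoining H3K27me3 domains (47.0%) the peak that held the domain overlapped an H3K4me3 peak in at least 1 pair of single libraries. Among separate H3K27me3 domains this was so for 857 (5.99%). The separate domains lay far from the other mark, at a median of 8026 bp for H3K27me3 and 13046 bp for H3K4me3. Of the H3K27me3 domains without overlap, 39.6% had no H3K4me3 within 10000 bp, and of such H3K4me3 domains 55.3% had no H3K27me3 within that distance. With a limit of 500 bp in place of 1 kb, 576 H3K27me3 and 658 H3K4me3 domains adjoined, and with 2 kb 2523 and 2699.

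H3K27me3 domains with H3K4me3 were narrower than those without it. Their median width was 871.5 bp against 1015 bp, a ratio of 0.859. The ratio was 0.859 to 0.865 in the 4 pairs of single libraries, which share libraries. It moved more with the processing, from 0.763 without the weakest 25% of peaks by q to 0.9005 for overlaps of at least 150 bp, and stayed below 1. Mean H3K27me3 widths differed less, at 1148 bp with H3K4me3 and 1230 bp without it, a ratio of 0.933. By class the medians were 871.5 bp for overlapping, 869 bp for adjoining and 1021 bp for separate H3K27me3 domains. H3K4me3 widths differed little. Their median was 753 bp with H3K27me3 and 772 bp without it, a ratio of 0.975, against 0.972 to 0.998 in the single pairs. The direction turned with the processing, to 1.03 with runs up to 500 bp apart joined, 1.10 without the weakest 25% of peaks by q and 1.02 with equal numbers of peaks. The mean width went the other way, at 865 bp with H3K27me3 and 837 bp without it, since overlapping H3K4me3 domains were spread over a wider range, with quartiles of 463 and 1189 bp against 504 and 1088 bp for separate ones. Adjoining H3K4me3 domains were the narrowest class, with a median of 673 bp.

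A wide domain offers more room for an overlap, so the share that overlapped was also taken by width. In 5 groups of equal number by H3K27me3 width, from narrow to wide, 20.0%, 21.6%, 16.8%, 15.7% and 16.5% of domains overlapped H3K4me3. The share of bases under H3K4me3 fell more steeply, from 15.6% in the narrowest group to 4.27% in the widest. The shared length per overlapping domain was therefore not in proportion to width, with a median of 287.5 bp in the narrowest and 505 bp in the widest group, which is 87.3% and 19.7% of such a domain. For H3K4me3 the order was not the same. The 5 width groups gave 15.7%, 13.8%, 10.6%, 11.4% and 17.2%, so that the narrowest and the widest H3K4me3 domains overlapped H3K27me3 more often than those between. The median shared length was 463 bp in the widest group, 29.5% of a domain, while the narrowest overlapping ones were covered in full at the median.

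**Figure D4:**
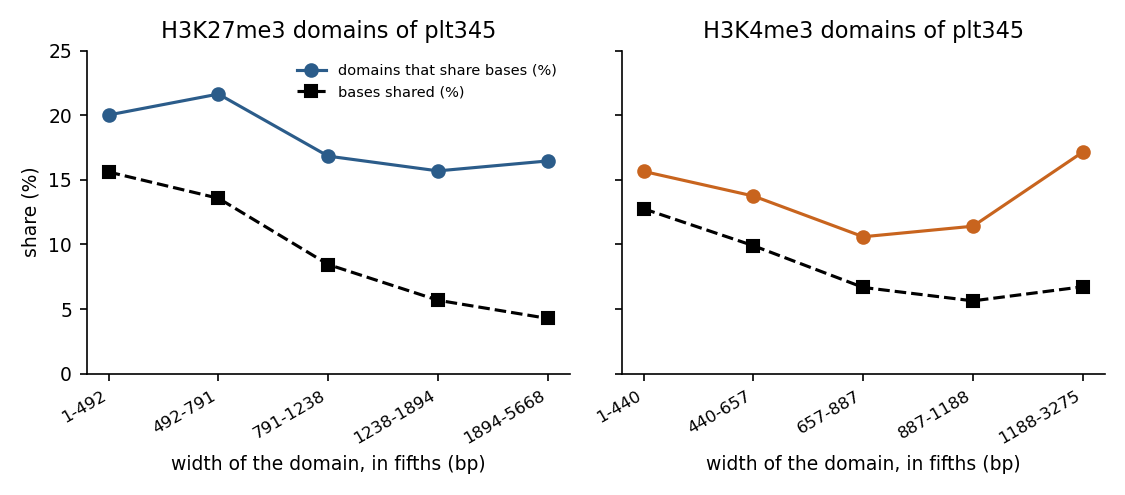
Share of domains that overlapped the other mark (coloured line) and share of bases under the other mark (dashed black line), in percent, for H3K27me3 domains (left) and H3K4me3 domains (right) of plt345 sorted into 5 groups by width in bp. The share of H3K27me3 bases falls from 15.6% to 4.27% with width, and the share of overlapping H3K4me3 domains is lowest in the middle group at 10.6%.

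Peak strength, as the authors' fold over background in each list, differed little by class and is given as a description. The median H3K27me3 fold was 2.39 and 2.36 in replicates 1 and 2 for peaks overlapping H3K4me3, and 2.17 and 2.16 for separate ones. The median −log10 q hardly differed, at 2.76 and 2.61 for overlapping and 2.76 and 2.64 for separate H3K27me3 peaks, whose widths were larger. H3K4me3 peaks on H3K27me3 had a lower median −log10 q than separate ones, 14.6 and 14.8 against 18.3 and 18.7. Their median fold was close, at 3.64 and 3.65 against 3.72 and 3.73. Adjoining peaks had the lowest median −log10 q of both marks, with 2.30 and 2.13 for H3K27me3 and 13.9 and 14.5 for H3K4me3. By fold, adjoining H3K27me3 peaks lay between the other classes, at 2.26 and 2.22.

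EMF2b of plt345, a readout that the classes do not use, was most frequent on overlapping domains. Peaks of both EMF2b libraries lay on 1992 of the 3414 overlapping H3K27me3 domains (58.3%), on 25.4% of adjoining and on 11.3% of separate ones, while 20.7% of all H3K27me3 domains had them. By single EMF2b library the share was 63.3 ± 3.67% for overlapping and 14.1 ± 1.87% for separate H3K27me3 domains (SD, n = 2), and the lower library on overlapping domains lay far above the higher one on separate domains. On H3K4me3 domains the order was 54.8% for overlapping, 17.8% for adjoining and 19.9% for separate, against 24.6% of all H3K4me3 domains. By number, 1992 of the 3893 H3K27me3 domains with EMF2b were overlapping. Of the 6308 H3K4me3 domains with EMF2b, 1931 were overlapping and 4141 were separate, the largest class. Overlapping domains were above separate ones in each of the 5 groups of H3K27me3 width, with EMF2b on 47.7 to 65.8% and 8.66 to 14.1% of them. Among separate H3K4me3 domains the widest group was higher, with EMF2b on 41.0% against 11.2 to 19.5% in the other 4.

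PLT5 peaks of WT were also most frequent on overlapping domains of plt345. Peaks of both PLT5 libraries were found on 1779 overlapping H3K27me3 domains of plt345 (52.1%), on 19.7% of adjoining and on 7.55% of separate ones, while 16.4% of all H3K27me3 domains had them. Of the H3K4me3 domains, 50.2% of overlapping, 13.5% of adjoining and 14.7% of separate ones had PLT5, against 19.5% of all. These libraries come from the other genotype, and the PLT5 samples of plt345 were not analysed here.

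Within overlapping domains both proteins were on the shared stretch more than beside it. EMF2b peaks covered 43.0 ± 2.50% of the bases under both marks, 16.5 ± 2.14% of the H3K27me3 beside them and 13.9 ± 1.40% of the H3K4me3 beside them (SD, n = 2). Separate H3K27me3 was covered for 4.69 ± 0.734% and separate H3K4me3 for 8.85 ± 0.886%. The PLT5 values were 45.2 ± 3.87% on the shared stretch, 14.9 ± 1.90% and 15.7 ± 2.76% beside it, and 3.71 ± 0.467% and 8.66 ± 1.45% on separate domains. In each case the lower library on the shared stretch lay above the higher library on every other part. Runs under the peaks of all 14 libraries, described below, made up 24.2% of the shared bases and count towards both proteins. By arrangement, stretches with H3K27me3 inside an H3K4me3 domain had EMF2b most often, at 66.8%, against 54.7% of staggered stretches and 43.1% of those with H3K4me3 inside H3K27me3. PLT5 gave 64.5%, 47.8% and 43.1%. Over all 3561 stretches the shares were 53.1% for EMF2b and 48.7% for PLT5, close to those of the staggered ones.

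**Figure D5:**
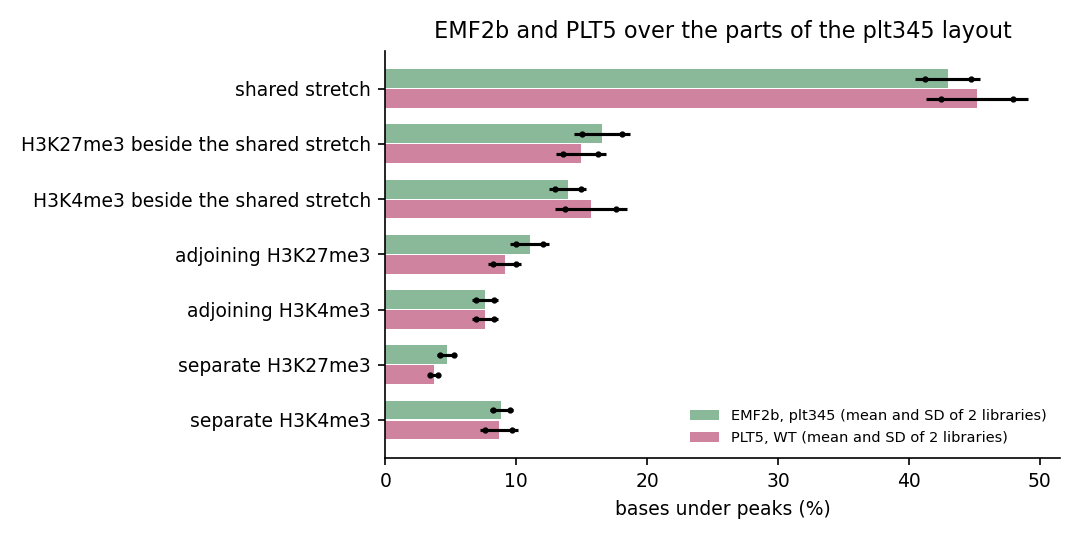
Share of bases under EMF2b peaks of plt345 and PLT5 peaks of WT, in percent, over the parts of the plt345 layout. Bars are means and error bars the SD of 2 libraries, drawn as points; the shared stretch has the highest value of both, at 43.0% for EMF2b and 45.2% for PLT5, and separate H3K27me3 the lowest.

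The overlapping share differed between the 12 chromosomes. The share of H3K27me3 domains that overlapped H3K4me3 was highest on chromosome 1 at 21.5% and lowest on chromosome 11 at 14.1%, while H3K4me3 domains overlapped H3K27me3 least on chromosome 3 at 11.3% and most on chromosome 11 at 16.7%. The number of H3K4me3 domains for each H3K27me3 domain moved with this, at 1.62 on chromosome 1, 1.84 on chromosome 3 and 0.871 on chromosome 11. Its part in the shares was not tested. The shared length ranged from 91.3 kb on chromosome 10 to 230 kb on chromosome 1.

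The 4 longest stretches under both marks were also under the peaks of every other antibody. The first lay on chromosome 1 from 33534916 to 33537876 (2961 bp), inside an H3K27me3 domain of 4514 bp. The next was on chromosome 12 from 8530480 to 8533365 (2886 bp) and the third on chromosome 1 from 33582603 to 33585172 (2570 bp). At each of these 3, and at the fourth, on chromosome 9 from 4693015 to 4695501 (2487 bp), peaks of all 14 libraries covered every base, in both genotypes and for EMF2b and PLT5. The authors' fold at the first was 2.15 and 2.12 for H3K27me3 and 2.92 and 3.10 for H3K4me3 in replicates 1 and 2 of plt345, which is below the list median for both marks. The H3K27me3 fold was above the list median at the second, with 2.95 and 2.83, and at the third, with 2.68 and 2.73. The H3K4me3 fold was below its list medians of 3.70 and 3.71 there too, with 3.65 and 3.56 at the second and 3.32 and 3.39 at the third. The fifth, of 2342 bp on chromosome 4 (23558543 to 23560884), had 484 and 450 bp under EMF2b peaks in plt345. The sixth, of 2150 bp on chromosome 9 (17221120 to 17223269), had 246 and 351 bp.

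Runs under the peaks of all 14 libraries numbered 1156, with a median of 289 bp, and made up 24.2% of the shared bases. Of these runs 19 reached 1 kb, for 33.8 kb in all, and they were gathered in few places: 5 on chromosome 1 between 33519317 and 33585172, 5 on chromosome 9 between 4678499 and 4732247, 6 on chromosome 12, 2 on chromosome 4 and 1 on chromosome 10. The IgG libraries were not analysed here, and what sets these runs was not tested. Among plt345 stretches over both marks, 5 of the 11 of at least 2000 bp had 90% or more of their bases under all libraries, but 18 of the 211 of at least 1000 bp (8.53%) and 108 of the 1143 of at least 500 bp (9.45%). Among those under 500 bp it was 375 of 2418 (15.5%), so the share did not rise steadily with length. With these long runs taken out, an alternative chosen after seeing the data, EMF2b covered 41.7 ± 2.56% and PLT5 44.0 ± 3.95% of the shared bases (SD, n = 2). The long runs were 2.13% of the shared bases, so leaving them out could change the values little. The shorter runs stayed in. All of these runs lie under EMF2b and PLT5 peaks by definition, so their 24.2% of the shared bases is part of the cover by both proteins.

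Other regions with many overlaps were of the same kind in part. The H3K27me3 domain with the most H3K4me3 domains that was also the widest, 5668 bp on chromosome 9 from 4705585 to 4711252, held 3 of them and 3383 bp under both marks, and EMF2b and PLT5 covered all of it. The second, on chromosome 12 from 8540536 to 8544531, had 2449 bp under both marks and nearly full EMF2b cover. The third, on chromosome 1 from 11714437 to 11718159, differed: its 3723 bp of H3K27me3 held 857 bp of H3K4me3 in 3 pieces, with no EMF2b peak in any library and 291 bp of PLT5 in 1 library. Each plt345 H3K4me3 library had 2 peaks there, over 1424 and 1339 bp, so the 3 pieces arose where the libraries were intersected. In WT each H3K4me3 library had 1 peak there, and 1961 bp were under both marks.

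The longest domains of a single mark differed in the other peaks they held. Among separate H3K27me3 domains the widest, of 5324 bp, was on chromosome 7 (10353206 to 10358529). It was followed by 5215 bp on chromosome 4 (17341738 to 17346952) and 4835 bp on chromosome 5 (25128485 to 25133319). None of the 3 had an H3K4me3 or PLT5 peak in any library or an EMF2b peak in plt345. Among separate H3K4me3 domains the widest, of 3275 bp, was on chromosome 3 (31487898 to 31491172), before 3192 bp on chromosome 10 (22423534 to 22426725) and 3191 bp on chromosome 2 (4182672 to 4185862). EMF2b lay on the first, with 399 and 421 bp, and on the second, with 683 and 457 bp, and was absent from the peak lists at the third. PLT5 of WT had 634 and 464 bp on the first, 1462 and 851 bp on the second and none on the third. At the first, 1 of the plt345 H3K27me3 libraries, replicate 1, had 199 bp.

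The layout was last compared with that of WT, to see where plt345 differed. Each plt345 H3K27me3 library shared less length with the bases under both H3K4me3 libraries than each WT library, 2.02 and 1.96 Mb against 2.60 and 2.60 Mb, or 1.99 ± 0.0412 against 2.60 ± 0.00119 Mb (SD, n = 2). The groups did not overlap, and the ratio was 0.765 (exact two-sided permutation test over libraries p = 0.333, adjusted p = 0.333 over 5 comparisons), the smallest p that this test allows with 2 libraries against 2. Both values of a genotype used the same H3K4me3 bases, so their SD and this test cover the H3K27me3 libraries alone. Pairs of single libraries shared 2.33 to 2.42 Mb in plt345 and 2.95 to 3.03 Mb in WT. H3K27me3 also covered less in plt345, and as a share of its length the overlap was 7.19 ± 0.170% against 8.23 ± 0.163% (SD, n = 2). As a share of H3K4me3 length it was 7.88 ± 0.0136% against 10.3 ± 0.0819%, and of H3K4me3 peaks 14.7 ± 0.0393% against 19.3 ± 0.0885% overlapped H3K27me3 (SD, n = 2). The share of H3K27me3 peaks that overlapped H3K4me3 was closer, at 19.7 ± 0.433% and 21.4 ± 0.0317% (SD, n = 2). The exact permutation p was 0.333 for each. The plt345 lists had a lower median −log10 q than the WT lists. It was 2.73 and 2.59 against 3.34 and 3.36 for H3K27me3, and 17.4 and 17.9 against 20.0 and 20.2 for H3K4me3. Bases under both libraries were also a smaller part of those under either, 70.6% against 75.6% for H3K27me3 and 80.7% against 82.2% for H3K4me3. The part of these differences between lists in the lower overlap was not tested.

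The arrangement itself was similar in WT, with 57.8% of overlapping pairs staggered, 26.5% with H3K4me3 inside and 15.7% with H3K27me3 inside, and a median shared stretch of 381 bp. Peaks of both WT EMF2b libraries lay on 58.6% of overlapping, 27.1% of adjoining and 12.4% of separate H3K27me3 domains of WT. In plt345 these shares were 58.3%, 25.4% and 11.3%. None of these values was tested between the genotypes. Of the bases under both marks in plt345, 66.4% were under both in WT, 18.8% under H3K27me3 alone, 10.3% under H3K4me3 alone and 4.53% under neither. Of the 2.17 Mb under both marks in WT, 48.4% were under both in plt345, 21.4% under H3K27me3 alone and 21.0% under H3K4me3 alone. The 66.4% and 48.4% are the same 1.05 Mb, taken as shares of 1.58 and of 2.17 Mb. Within plt345 alone, single pairs shared 2.33 to 2.42 Mb, and 1.58 Mb remained under both libraries of each mark. The part of such library differences in these shares was not tested. By class, 81.5% of overlapping H3K27me3 domains of plt345 had H3K4me3 in WT, against 19.3% of adjoining and 3.31% of separate ones and 18.4% of all H3K27me3 domains.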

How the data were processed

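The submitters' processing notes name MACS2 2.2.7.1, Bowtie2 2.4.4, Trim Galore 0.6.6 and deepTools 3.5.0. No source used here gives the build, the MACS2 control or what was done with duplicates. The deposited lists have no header, and their columns follow the MACS2 layout. Each peak has a start and end and, from the authors, a score (10 times the −log10 q in broad and −log10 p in narrow lists, checked in each list), a fold enrichment as a ratio to the background of its library, a −log10 p and a −log10 q. These deposited p-values and q-values depend on depth, which is unknown, and were used within a list, apart from the list medians set beside those of WT.

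Bases under both libraries of a mark were intersected with Python 3.11.15, numpy 2.4.6, pandas 2.3.3 and scipy 1.17.1, and the interval code was checked base by base on simulated chromosomes. Domains overlapped at 1 bp, adjoined at a gap under 1 kb and were otherwise separate. No minimum length was set, so 230 H3K27me3 and 191 H3K4me3 domains were under 150 bp. Positions are 1-based. Alternatives tried were a least overlap of 150 bp, other gaps, domain lengths, joining, q, union, equal peak numbers, chromosomes and left-out libraries. Replicate numbers were not taken to pair WT with plt345. Deviations of same-numbered libraries correlated at −0.00812 (H3K27me3) and −0.00221 (H3K4me3), which cannot show whether such libraries were handled together.

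The members were chosen by their labels, but this choice, the tests and the lists were made with earlier results of these data known. Regions were named by length: the first 6 stretches under both marks, H3K4me3 domains inside H3K27me3, separate domains of each mark, and the 6 H3K27me3 domains with the most H3K4me3 domains (ties by width). The first 3 are given, with others of a list to complete a count. The longest H3K4me3 domains inside H3K27me3 repeat the longest stretches and are not given again. The WT contrast has an exact permutation test over libraries with Benjamini-Hochberg adjustment, and other values are descriptions. Nothing states that replicates are separate plants, so their spread may be technical. IgG samples and the PLT5 samples of plt345, 6 in all, were not analysed here, and the root tip label could not be checked by marker genes, since the lists name no genes.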

Additional observations from a re-analysis of the deposited data

Results flagged for a closer look

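The width of H3K4me3 domains with H3K27me3, relative to those without it, went in opposite directions in the genotypes under the processing reported. The ratio of median widths was 0.975 in plt345 and 1.01 in WT. It was below 1 in each of the 4 pairs of single plt345 libraries (0.972 to 0.998) and above 1 in each of the 4 WT pairs (1.01 to 1.03). In plt345 it rose above 1, the WT side, with runs up to 500 bp apart joined (1.03), without the weakest 25% of peaks by q (1.10) and with equal numbers of peaks (1.02). The pairs share libraries, and the difference between the genotypes was not tested. The ratio of mean widths was above 1 in both, at 1.04 to 1.06 in plt345 and 1.08 to 1.09 in WT.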

How the results depend on the processing

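Of 139 recomputed values 105 stayed within 1.5 times the reported count, within 1 SD of the reported value or, for the ratio to WT, on the same side of 1 and of the threshold. For the ratio to WT the side of the significance threshold was fixed in advance, since 2 libraries against 2 cannot pass it. Peaks above the 25th percentile of −log10 q gave 1710 overlapping and 513 adjoining H3K27me3 domains, 1722 and 556 such H3K4me3 domains, 337 H3K4me3 domains inside H3K27me3, 0.9187 Mb of overlap, and width ratios of 0.7631 for H3K27me3 and, turned round, 1.099 for H3K4me3. Bases under at least 1 library gave 5914 and 6080 overlapping H3K27me3 and H3K4me3 domains, 1840 inside, 3.288 Mb and ratios of 0.8674 and 0.9954. Equal numbers of peaks gave 1.472 Mb, 0.836 and, turned round, 1.022. Joining runs up to 500 bp apart also turned the H3K4me3 ratio, to 1.027. Adjoining domains numbered 576 and 658 at 500 bp and 2523 and 2699 at 2 kb. The H3K27me3 ratio was 0.9005 for overlaps of at least 150 bp, 0.8502 for runs of at least 150 bp and 0.8512 without the domains that touch a run of 1 kb under all 14 libraries, an alternative chosen after seeing the data. The cause of these changes was not tested, except that stricter lists hold fewer peaks and looser ones more.

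With 1 plt345 library left out, so that a mark rests on the other library alone, the overlap was 1.896 to 2.017 Mb, the H3K27me3 ratio 0.8432 to 0.8786 and the H3K4me3 ratio 0.9497 to 0.9935. The ratio of overlap length to WT was 0.7638 to 0.8143 under the other settings and 0.754 to 0.7764 with 1 H3K27me3 library left out. With 1 H3K4me3 library left out it was 0.9179 and 0.9089 for those of plt345 and 0.6724 and 0.6564 for those of WT. There the genotype concerned rests on a single H3K4me3 library and the other on bases under both, so these values do not compare like with like. With the replicate block, in which libraries of the same number form a pair, the ratio of overlap length to WT was 0.7924. The numbers 1 and 2 gave 0.789 and 0.796 (exact sign-flip p = 0.5, the smallest 2 pairs allow). Neither this test nor the permutation test over libraries can pass a threshold for significance with so few libraries, so no call could change.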
